A study of Mus musculus with 20 samples.

Results

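The germline and meiosis genes described here are 38 genes whose products work in germ cells, taken as a list of names by known function out of 55413 genes in the mouse annotation. The rule uses no methylation value, but the list was drawn up with earlier results of these data known. Their CpGs were collected from 5000 bp upstream of the transcription start site (TSS) to the gene end, and a CpG was kept where at least 3 of the 5 libraries of each of the 4 groups had 10 reads or more. This left 1098 of the 922846 CpGs kept across the genome. Of them, 509 lay within 1000 bp of the TSS of 27 members (the promoter), 472 lay deeper in the gene in 27 members (the gene body) and 117 lay in the upstream flank of 8 members. Rec8, a meiotic cohesin subunit, had no kept CpG. Promoters and gene bodies were tested where they held at least 3 kept CpGs, which was the case for 26 promoters and 26 gene bodies.

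In mammals, genes of this kind are used by primordial germ cells, spermatogonia, spermatocytes and oocytes and are silent in most body tissues. Many carry promoters of intermediate to high CpG content that become methylated in the embryo around implantation, with help from repressor complexes of E2F6, MGA and MAX that bind E2F sites and E-boxes, and are cleared of methylation again in germ cells. The liver is therefore a tissue in which these genes are not known to act, and their promoters are a well-known case of CpG-rich DNA that is methylated in somatic cells.

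Liver DNA of C57BL/6J male wild-type offspring was measured by reduced representation bisulfite sequencing (RRBS), which samples the CpG-rich fragments that MspI releases and scores each read over a CpG as methylated or, where bisulfite has converted the cytosine, as unmethylated. Con dams ate a control diet throughout. Dams of the adverse maternal environment (AME) groups ate a Western diet from before mating through lactation and lived in a changing, sparsely bedded cage late in pregnancy, so diet and stress cannot be told apart. Livers were taken at birth, by C-section (Con-d0 and AME-d0), or at weaning on day 21 after a fast (Con-d21 and AME-d21), with 5 livers per group. The methods give 5 dams or litters per group and do not say that each sequenced liver came from its own litter, so p-values measure the spread between these livers. The design asks whether AME shifted methylation at either age, and how it changed between birth and weaning in each arm.

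The libraries held 23248139 to 45769589 counts, with a median of 7 to 13 reads per CpG. Over the CpGs covered in all 20 libraries, Con-d0 libraries averaged 33.8 to 35.3% methylation and d21 libraries 38.1 to 38.5%. AME-d0 libraries averaged 31.9 to 34.2%, with replicates 1 (31.9%) and 3 (33.0%) lowest. The library labelled AME-d21 replicate 4 stood apart from the label male, since for every 100 autosomal reads it had 2.88 on X, where 1.53 to 1.55 were found in the remaining d21 libraries. Of every 100000 counts 1.63 lay on the Y short arm in this library and 19 to 21.8 in the remaining ones. No member lies on X or Y. Without it, 9 promoters and 22 gene bodies of members passed in AME-d21 against AME-d0, against 8 and 22 with it, and 4 single CpGs were called against 13. The samples were whole liver, so a change in the mix of cells and a change within cells cannot be told apart.

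The methylation level is the percent of methylated reads over the kept CpGs of a region. Most measured member promoters were highly methylated in liver DNA. In Con-d0, 18 of 26 (69.2%) stood above 50%, 5 (19%) below 10% and 3 between, with a median of 74.6%. Over the 12705 protein-coding genes measured the same way, 6.50% stood above 50%, 87.3% below 10%, and the median was 0.241%. The difference was also there within classes of CpG content. Among promoters with an observed to expected CpG ratio of 0.25 to 0.6, 14 of 15 members (93.3%) and 9.08% of 5256 protein-coding genes exceeded 50%, and among CpG-rich promoters (ratio of at least 0.6 and at least 50% G and C) 2 of 9 members (22.2%) and 0.306% of 6203 genes did. The plot of promoter levels shows every library by role.

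**Figure D1:**
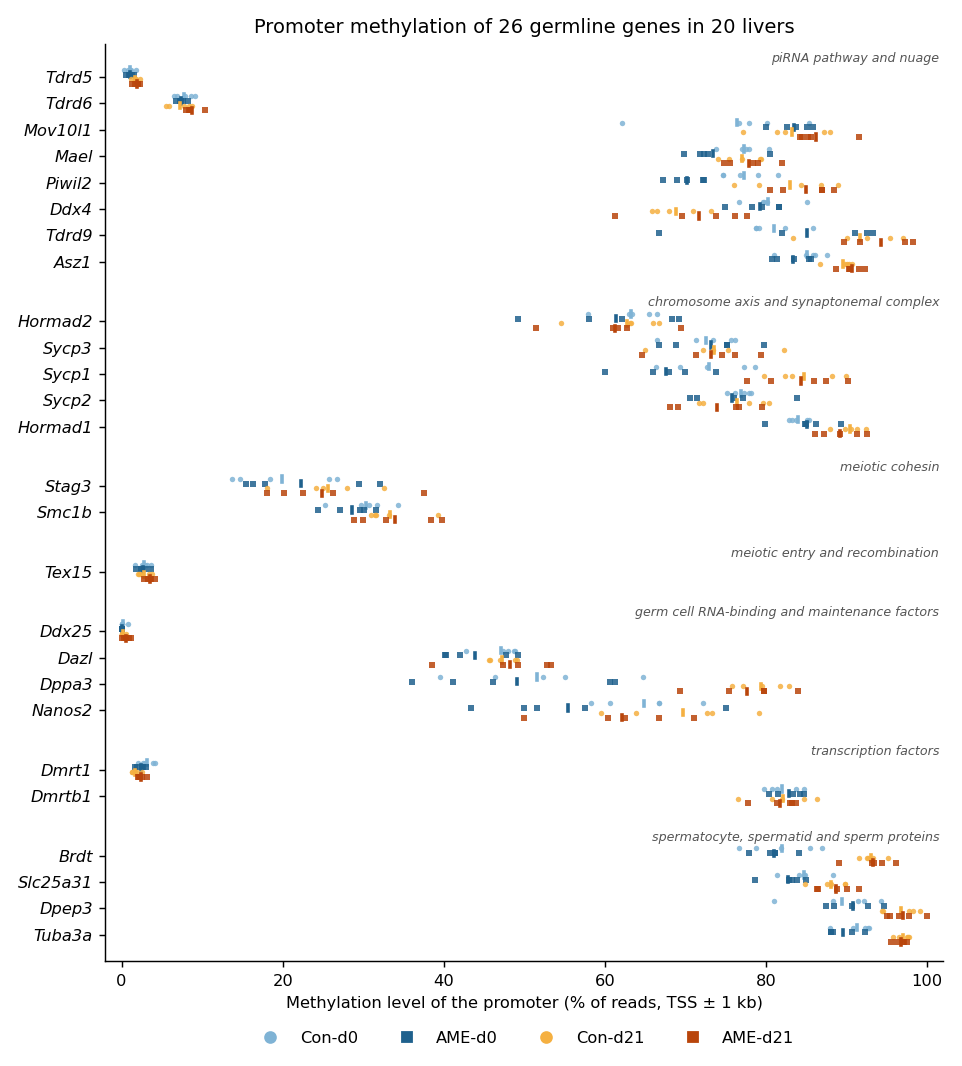
Methylation level of each measured promoter (x axis, % of reads within 1000 bp of the TSS) for 26 germline genes ordered by role (y axis). Points are single livers, short bars are group means and colours are the 4 groups. In Con-d0, 18 genes have means above 50%, and the 5 below 10% are Tdrd5, Tdrd6, Tex15, Ddx25 and Dmrt1.

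The sequences below show how densely CpGs can be packed in a methylated germline promoter. They are printed 5′ to 3′ on the strand of the gene, from RefSeq sequence of GRCm38.p6 (mm10), with the CpGs measured here in capitals. Slc25a31 (a germ cell ADP/ATP carrier) is shown from chr3:40708621-40708854 (plus strand), which ends at the base before the TSS. Hormad1 (a chromosome axis protein) is shown from chr3:95559427-95559676 (plus strand), likewise. In the Slc25a31 stretch all 17 CpGs were measured and averaged 84.9% in Con-d0, 83.0% in AME-d0, 87.7% in Con-d21 and 88.8% in AME-d21. In the Hormad1 stretch 10 of 19 CpGs were measured and averaged 84.3%, 86.3%, 89.6% and 87.6% in the same order.
Slc25a31: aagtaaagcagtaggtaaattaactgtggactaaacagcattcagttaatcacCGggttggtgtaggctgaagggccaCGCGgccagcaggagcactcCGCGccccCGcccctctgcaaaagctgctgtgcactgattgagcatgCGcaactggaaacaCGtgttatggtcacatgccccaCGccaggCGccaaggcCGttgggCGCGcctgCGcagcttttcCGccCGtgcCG
Hormad1: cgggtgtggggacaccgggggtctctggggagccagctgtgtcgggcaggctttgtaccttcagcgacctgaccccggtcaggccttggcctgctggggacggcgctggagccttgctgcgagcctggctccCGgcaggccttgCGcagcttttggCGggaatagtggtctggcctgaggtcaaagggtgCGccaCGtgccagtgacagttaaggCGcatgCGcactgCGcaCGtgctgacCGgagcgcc

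An E-box, CACGTG, holds a CpG of its own, and was searched on both strands in the RefSeq promoter windows of the 33 members that matched that table, next to GGCGGGA, an E2F-like motif. The E-box was found in 15 of 38 member windows (39.5%) and in 7.15% of all 32817, GGCGGGA in 15.8% and 11.3%, and both in 13.2% and 1.18%. Counted per gene, 13 of 33 members (39.4%) and 8.09% of 27025 genes held the E-box. Measured members above 50% in Con-d0 held it in 9 of 16 cases and those at or below 50% in 2 of 5. The E-boxes printed below for Dazl lie outside these windows and are not counted. Of the measured CpGs in the windows, 4 in 3 genes sat inside the hexamer. The one in Slc25a31, 75 bp upstream of the TSS, had 66.6% in Con-d0, 54.7% in AME-d0, 67.2% in Con-d21 and 63.9% in AME-d21, the lowest of the measured CpGs in the stretch printed above. The 2 in Hormad1 had 63.6% (55 bp upstream) and 55.8% (18 bp upstream) in Con-d0, and 57.6% and 69.7% in Con-d21. The one in Ddx25, 98 bp inside the gene, was at 0% in each group mean. A match in the letters is a description and is no measure of binding.

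By role, the promoters of piRNA pathway and nuage genes, which silence transposons in germ cells, ran from 1.02% (Tdrd5) to 85.1% (Asz1) in Con-d0, with 6 of the 8 measured above 50%. All 5 promoters of chromosome axis and synaptonemal complex genes, which hold paired meiotic chromosomes together, exceeded 50% and lay between 63.3% (Hormad2) and 84.0% (Hormad1). The meiotic cohesins Stag3 and Smc1b were intermediate, at 19.9% ± 6.11 and 30.3% ± 3.29 (SD, n = 5). Tex15, which acts in meiotic recombination and transposon silencing, was at 2.79% ± 0.756. Among RNA-binding and maintenance factors, Dppa3 (51.6%) and Nanos2 (64.9%) were above 50%, Dazl stood at 47.1% and Ddx25, an RNA helicase of spermatids, at 0.165%. The DMRT transcription factors stood apart, with Dmrtb1 at 82.0% and Dmrt1, a gonadal regulator, at 3.14%. The 4 measured promoters of spermatocyte and sperm proteins (Brdt, Slc25a31, Dpep3 and Tuba3a) held 82.0 to 91.3%. Promoters of Piwil1, Piwil4, Syce1, Tex101, Tdrd1, Rad21l, Stra8, Hsf2bp, Nanos3, Gtsf1 and Rec8 held no kept CpG, and Meioc, a regulator of meiotic entry, had 1 CpG at 80.7%. With the TSS of the principal transcript instead, which moved it by 4625 bp, Tex101 had 23 CpGs at 79.9% ± 1.85. For Meioc the TSS moved by 1872 bp, and 49 CpGs had 44.4% ± 5.58 in place of the 1 CpG at 80.7%.

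The least methylated promoters had few methylated reads. Tdrd5, a Tudor-domain protein of germ granules, had 0.35, 0.81, 1.76, 1.01 and 1.16% in the Con-d0 libraries, 1.04, 1.32, 1.51, 0.93 and 0.56% in AME-d0, 1.15, 1.69, 1.71, 2.25 and 1.76% in Con-d21 and 1.71, 2.31, 2.04, 1.28 and 2.01% in AME-d21. Tex15 had 2.89, 3.69, 1.65, 3.14 and 2.59% in Con-d0, 2.55, 2.39, 3.60, 2.92 and 1.81% in AME-d0, 2.31, 2.23, 3.74, 3.44 and 2.08% in Con-d21 and 2.79, 3.53, 3.71, 3.34 and 4.17% in AME-d21. Neither gene separated any 2 groups compared here, and their age differences did not pass (limma, Benjamini-Hochberg adjusted p of 0.108 and 0.0638 for Tdrd5 in Con and AME, and 0.936 and 0.286 for Tex15). Of the low or intermediate promoters, Ddx25 shares its window with the TSS of Pus3, Smc1b with Ribc2, Stag3 with Gpc2 and Tdrd5 with an antisense transcript, so their CpGs are not specific to the germline gene. Piwil2 and Nanos2, which are highly methylated, share theirs with a small nuclear RNA and an antisense transcript.

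In Dazl and Stag3 the intermediate promoter level was an average of stretches with opposite states. In Dazl, which encodes a germ cell RNA-binding protein, 37 CpGs from 16 to 488 bp inside the gene averaged 86.7% ± 1.62 in Con-d0, 85.7% ± 1.87 in AME-d0, 87.8% ± 0.845 in Con-d21 and 89.3% ± 1.35 in AME-d21. The next 2 CpGs, at 507 and 517 bp, averaged 25.0% in Con-d0. The 18 CpGs from 529 to 661 bp averaged 2.88% ± 1.20 in Con-d0, 3.44% ± 1.41 in AME-d0, 3.30% ± 0.673 in Con-d21 and 3.96% ± 1.45 in AME-d21. In each of the 4 groups the stretch means thus fell between the CpGs at 488 and 529 bp. The bounds of the stretches were the same for all groups. Single CpGs of the first stretch went down to 39.3% in Con-d0. The sequence across this fall, chr17:50293026-50293216 (minus strand, GRCm38), overlaps no annotated exon and is printed with all 16 of its CpGs in capitals. It holds CACGTG starting 526 and 546 bp inside the gene, at the start of the low stretch, and 1 match to GGCGGGA on the opposite strand.
Dazl: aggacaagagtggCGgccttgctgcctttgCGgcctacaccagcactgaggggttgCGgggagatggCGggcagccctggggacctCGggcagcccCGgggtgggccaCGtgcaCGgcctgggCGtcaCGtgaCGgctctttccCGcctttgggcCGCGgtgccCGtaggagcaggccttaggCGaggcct

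Stag3, the cohesin subunit of meiotic chromosomes, had the reverse order. Its 13 CpGs at -181 to -38 bp from the TSS averaged 0.123% in Con-d0, 0.296% in AME-d0, 0.467% in Con-d21 and 0.748% in AME-d21, whereas the 7 CpGs from 734 to 873 bp inside the gene averaged 72.7% ± 8.65 in Con-d0, 79.7% ± 4.40 in AME-d0, 90.2% ± 6.80 in Con-d21 and 91.6% ± 7.21 in AME-d21, the last 3 over 4 libraries each. The upstream stretch, chr5:138280050-138280210 (plus strand, GRCm38), is shown as CpG-dense DNA that was nearly unmethylated in each group, with the measured CpGs in capitals. It ends before the RefSeq promoter window of Stag3 begins, and no CpG in that window was measured. As given above, the promoter tested here also holds the TSS of Gpc2.
Stag3: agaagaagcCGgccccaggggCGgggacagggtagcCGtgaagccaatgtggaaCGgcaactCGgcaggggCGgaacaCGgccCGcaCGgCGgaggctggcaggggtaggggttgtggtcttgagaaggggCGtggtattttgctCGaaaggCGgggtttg

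In Smc1b, another meiotic cohesin, 5 CpGs upstream of the TSS averaged 5.25% and the 14 CpGs from 135 to 292 bp inside the gene averaged 41.9% in Con-d0. That stretch was itself intermediate, and its single CpGs ranged from 22.0 to 74.9%. Tdrd6, a Tudor-domain protein of the chromatoid body, had 34 promoter CpGs with a mean of 8.53% in Con-d0 and single values from 0.708 to 30.9%. The maps of single CpGs show these profiles.

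**Figure D2:**
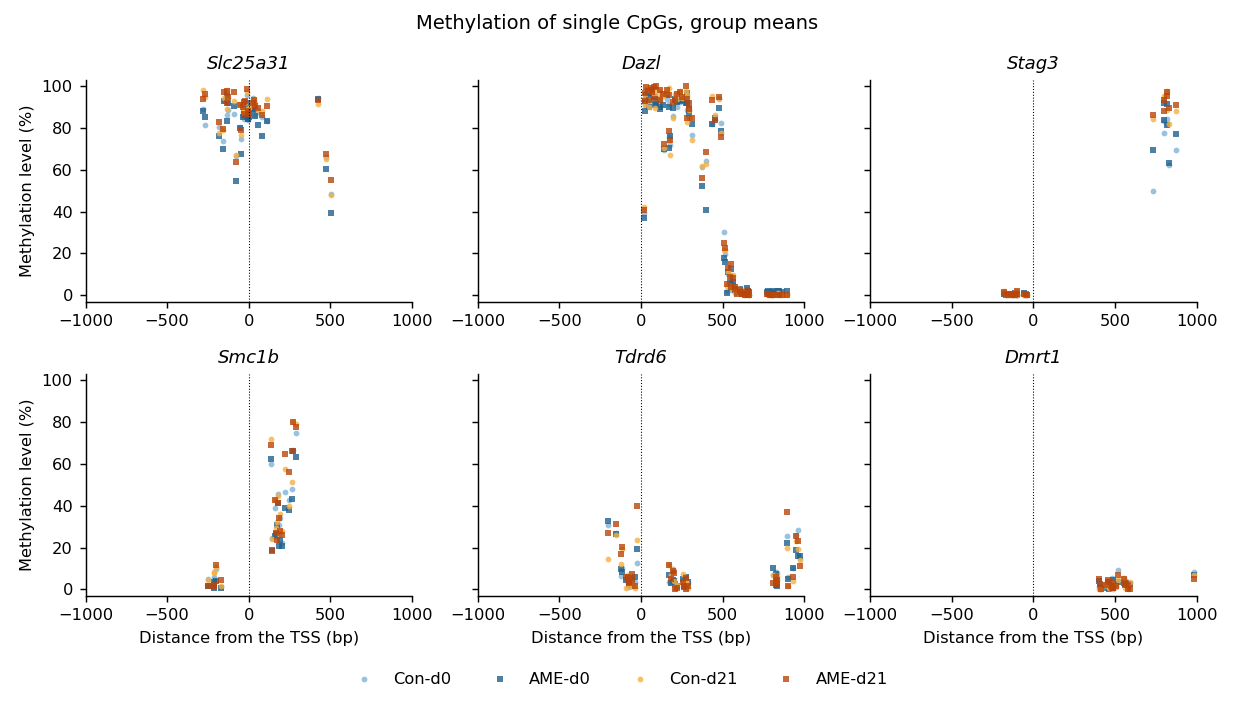
Group mean methylation level of single CpGs (y axis, %) by distance from the TSS (x axis, bp) in 6 germline genes, coloured by group. Slc25a31 is methylated throughout, Dazl falls from 86.7% to 2.88% between its stretches in Con-d0, Stag3 rises from 0.123% to 72.7%, Smc1b is mixed, and Tdrd6 and Dmrt1 stay low.

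Averaged over the CpGs of each bin, the profile around the TSS gives the same contrast with the rest of the genome. Genes with many measured CpGs weigh more in it. In the window from 1000 bp upstream to 2000 bp inside the gene the germline genes were methylated on both sides of the TSS, with 56.9% over 11 genes in the bin just upstream and 61.5% over 16 genes in the bin just inside the gene in Con-d0. Protein-coding genes as a whole had 1.68% and 1.81% there. The germline genes fell below all genes in the bin from 1500 to 1750 bp, which held 3 of them (16.3% against 17.4%).

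**Figure D3:**
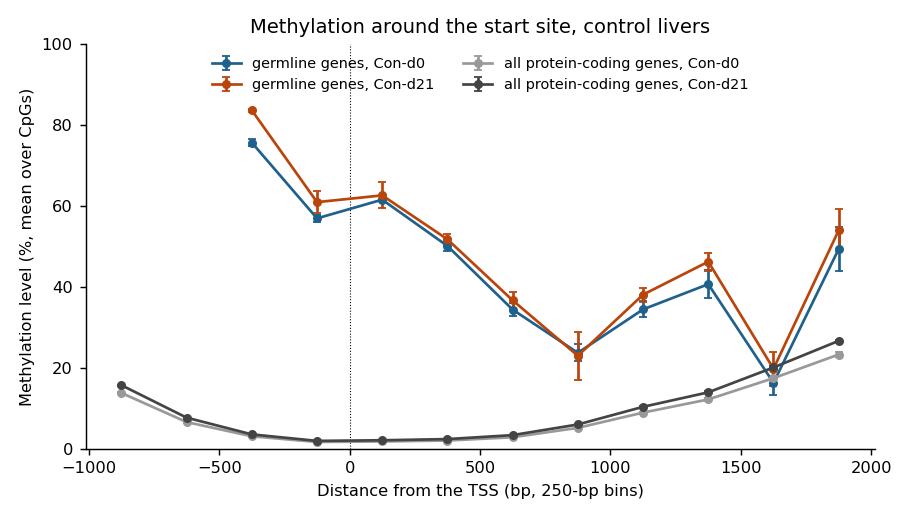
Mean methylation level (y axis, % over CpGs) in bins of distance from the TSS (x axis, bp) for the germline genes and for all protein-coding genes, in Con-d0 and Con-d21. Error bars are the SD over 5 libraries, and bins of the germline genes with fewer than 3 genes are left out. The germline genes lie far above the other genes next to the TSS (56.9% against 1.68% just upstream in Con-d0) and at about their level in the bin from 1500 to 1750 bp.

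No promoter of a member passed the test between AME and Con at either age. In AME-d0 against Con-d0, 0 of 26 passed (limma on log2 of methylated over unmethylated reads, Benjamini-Hochberg adjusted over 18359 promoters), and the share called over all promoters was 0%. At an unadjusted p under 0.05, 1 member and 5.39% of all promoters were found. In AME-d21 against Con-d21, 0 of 26 members and 0% of all promoters passed, with 0 members and 4.98% of all promoters at the unadjusted level. Differences in level ran from -9.41 points (Nanos2) to 7.03 points (Mov10l1) at d0 and from -7.57 (Nanos2) to 3.0 points (Mov10l1) at d21. The standard error of a member's log2 difference had a median of 0.27 at both ages. At d21 no member promoter had groups that did not overlap, which was so for 0.665% of all promoters.

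Piwil2, a PIWI protein that binds piRNAs, was the member found at d0. Its promoter (chr14, TSS at 70429383, minus strand, 10 CpGs) had 74.7, 76.8, 74.6, 79.0 and 81.5% in the Con-d0 libraries and 67.2, 72.3, 70.2, 69.0 and 72.2% in AME-d0. Every AME-d0 library was below every Con-d0 library, which was so for 1 of 26 members and for 0.801% of all promoters, in either direction. The difference was -7.16 points and -0.54 ± 0.23 (SE) on the log2 scale, with a limma p of 0.0377 and a Benjamini-Hochberg adjusted p of 0.892. At d21 the Con livers had 76.0, 88.9, 84.3, 79.2 and 86.8% and the AME livers 82.1, 87.0, 88.5, 87.0 and 80.5%, and these overlapped.

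Gene bodies and single CpGs gave no call between AME and Con either. Of 26 member gene bodies 0 passed at each age, where 0% of all 16182 gene bodies did (limma, Benjamini-Hochberg), and 0 had an unadjusted p under 0.05 at either age against 7.08% of all gene bodies at d0 and 4.63% at d21. The groups overlapped in every member gene body, and did not in 1.3% of all gene bodies at d0 and 0.711% at d21. Of the 1098 member CpGs none was called at d0 or d21 by a quasi-binomial test with the thresholds p under 0.001 and 10 points, and 0.000542% and 0.000217% of all kept CpGs were. With so few in the genome, a set of 1098 CpGs was unlikely to hold any, so the 0 says nothing particular about members. At an unadjusted p under 0.05 there were 22 member CpGs at d0 and 21 at d21, and 1.68% and 1.61% of all kept CpGs. Both shares were below the threshold of 0.05, so the test was conservative across the genome. Other models of the same reads called up to 5 member CpGs. The share of all CpGs called by those models is not given here, so these calls are not set against the genome.

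**Figure D4:**
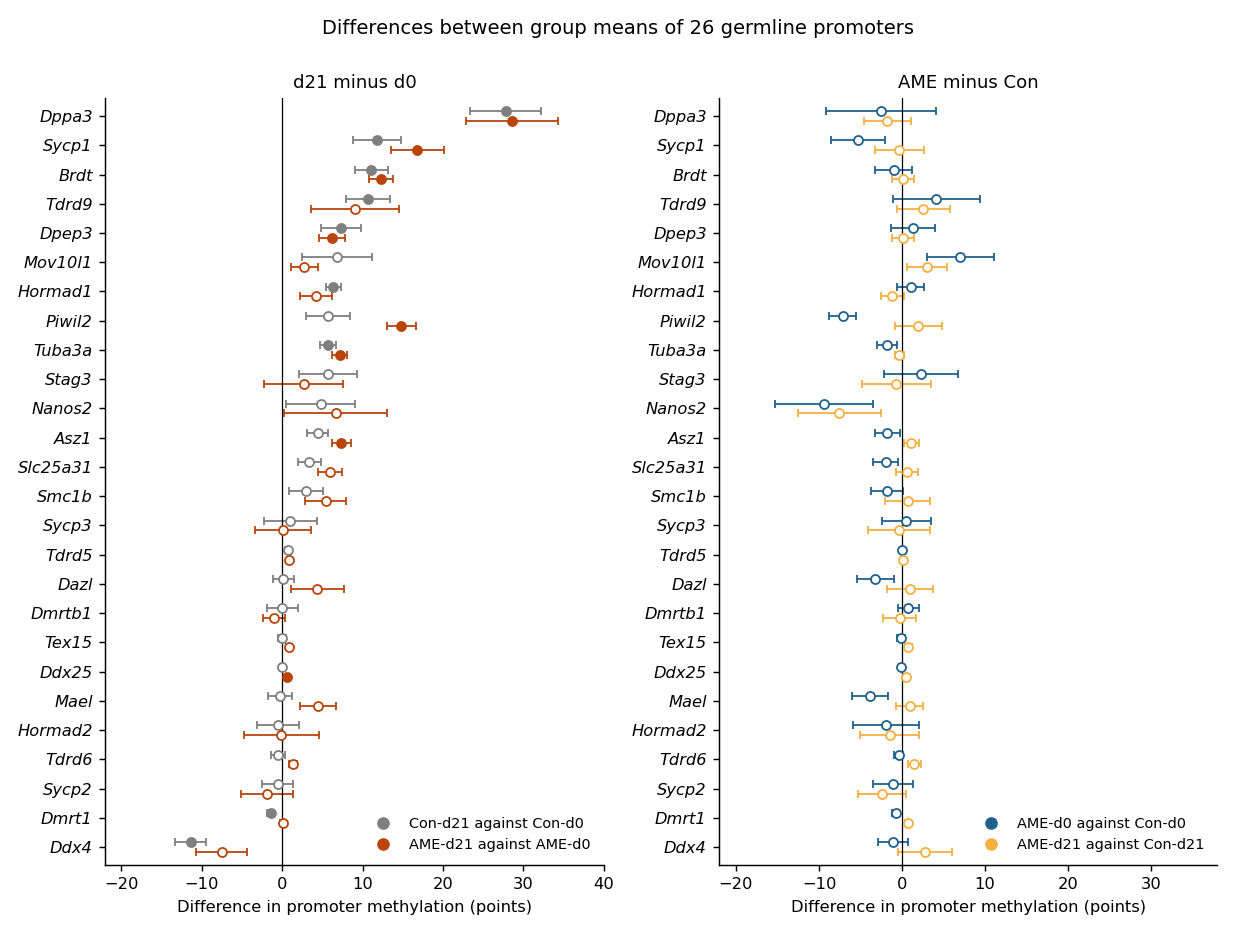
Differences between group means (x axis, percentage points) of 26 germline promoters (y axis), for d21 minus d0 within Con and AME (left) and AME minus Con at d0 and d21 (right). Filled points passed limma at a Benjamini-Hochberg adjusted p under 0.05, open points did not, and bars are the SE of the difference. The age differences reach 27.8 points in Con (Dppa3), and no point on the right is filled.

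Between birth and weaning a part of the member promoters gained methylation. In Con-d21 against Con-d0, 7 of 26 (26.9%) passed as higher and 2 (7.69%) as lower, where 19.8% and 3.87% of all promoters did. In AME-d21 against AME-d0, 8 (30.8%) were higher and 0 lower, where 20.8% and 3.13% of all promoters were. The libraries of the ages did not overlap in 7 members in Con and 8 in AME, where this was so for 18.9% and 19.3% of all promoters. Methylated promoters were called with age more often than unmethylated ones across the genome, so the counts are also given by level. Among promoters with a mean over 50% across the 20 libraries, 7 of 18 members (38.9%) and 49.6% of 3373 promoters rose in Con, and 38.9% and 52.9% in AME. The median log2 difference in this class was 0.56 for members and 0.86 for all promoters in Con, and 0.63 and 0.96 in AME. Dppa3, Tuba3a, Brdt, Sycp1 and Dpep3 were called in both arms. No promoter of a member passed the test of a difference between the 2 age changes, where 0% of all promoters passed (limma interaction over 20 libraries), and at an unadjusted p under 0.05 1 member (Dmrt1, 0.0226) and 4.97% of all promoters were found, so calls found in a single arm are not shown to be particular to it.

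Markers of other cell types moved with age in the same samples. The mean promoter level of the haematopoietic markers (5 of 8 measured: Cd48, Ermap, Csf3r, Pf4 and Epor) was 24.6 to 26.6% over the Con-d0 livers and 17.5 to 27.2% over AME-d0, and by weaning it was 54.5 to 65.2% over Con-d21 and 55.5 to 65.0% over AME-d21. That of the hepatocyte markers (3 of 8: F2, Pck1 and Fgb) was 59.8 to 62.0%, 54.2 to 60.2%, 19.3 to 30.5% and 22.9 to 29.3% in the same order. Endothelial markers (3 of 4: Eng, Tie1 and Kdr) ran from 13.1 to 22.4%, 9.65 to 15.2%, 38.5 to 41.3% and 38.3 to 42.2%. Their part in the age differences of the germline genes was not tested.

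The largest promoter change was in Dppa3 (chr6, TSS at 122626410, plus strand, 5 CpGs), which encodes a maternal factor that protects DNA methylation in the zygote. The Con-d0 livers had 64.8, 46.4, 39.6, 52.3 and 55.1% and the Con-d21 livers 75.8, 77.2, 79.5, 81.7 and 82.9%. The AME-d0 livers had 46.1, 36.1, 41.2, 60.6 and 61.3% and the AME-d21 livers 84.0, 79.7, 75.4, 79.8 and 69.4%. The ages did not overlap in either arm. It rose by 27.8 points in Con (log2 difference 1.80 ± 0.29, limma adjusted p 0.00071) and by 28.6 points in AME (1.78 ± 0.34, adjusted p 0.00208). Dppa3 was not among the calls in either arm with a coverage minimum of 20 reads or with the minimum in all 20 libraries.

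Of the spermatocyte and sperm genes, 3 of the 4 measured rose in both arms. All 4 lay above 50% in each group. Of all promoters with a mean over 50% across the 20 libraries, 49.6% rose in Con and 52.9% in AME. Tuba3a, a testis alpha-tubulin (chr6, TSS at 125286042, minus strand, 11 CpGs), had 92.6, 92.3, 88.0, 92.8 and 90.9% in Con-d0 and 95.7, 97.5, 96.6, 97.6 and 97.8% in Con-d21. In AME it had 88.1, 90.7, 88.3, 88.1 and 92.3% at d0 and 97.5, 95.6, 97.1, 96.3 and 97.1% at d21. All d21 livers were above all d0 livers of their arm, with log2 differences of 1.53 ± 0.26 (limma adjusted p 0.00101) in Con and 1.64 ± 0.27 (0.000876) in AME. Brdt, a testis bromodomain protein (chr5, TSS at 107331159, plus strand, 9 CpGs), had 81.9, 85.5, 76.7, 78.8 and 87.0% in Con-d0 and 95.2, 92.7, 93.3, 91.5 and 92.5% in Con-d21. Its AME livers had 81.1, 80.5, 77.9, 81.1 and 84.1% at d0 and 96.2, 93.2, 94.4, 89.0 and 93.4% at d21. The ages did not overlap in Brdt either, and the log2 differences were 1.5 ± 0.27 (adjusted p 0.0015) in Con and 1.71 ± 0.29 (0.00106) in AME. With a promoter window of 500 bp the Brdt call was lost in both arms. Dpep3, a testis dipeptidase (chr8, TSS at 105979429, minus strand, 5 CpGs), had 91.5, 88.3, 81.0, 94.3 and 92.1% in Con-d0, 94.6, 97.7, 98.2, 99.1 and 94.4% in Con-d21, 94.6, 88.4, 87.5, 92.7 and 90.6% in AME-d0 and 95.0, 95.5, 97.8, 100 and 96.6% in AME-d21. Its ages did not overlap within either arm, with log2 differences of 1.63 ± 0.44 (0.0153) and 1.41 ± 0.39 (0.0173). Tested on the mean percent over CpGs instead, Dpep3 did not pass in either arm. Slc25a31 had 84.7% and 88.0% in Con (limma adjusted p 0.269) and 82.7% and 88.7% in AME (0.0604), where the ages did not overlap but the test was not passed.

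In the chromosome axis genes, Sycp1, the transverse filament of the synaptonemal complex (chr3, TSS at 102936100, minus strand, 3 CpGs), had 69.4, 78.7, 72.7, 66.3 and 77.3% in Con-d0 and 88.2, 89.9, 79.8, 83.2 and 82.4% in Con-d21. The AME livers had 66.0, 68.0, 73.8, 69.9 and 60.0% at d0 and 87.5, 77.6, 90.2, 85.9 and 80.6% at d21. The ages did not overlap in Sycp1, which rose in both arms (log2 1.02 ± 0.29, limma adjusted p 0.0205, and 1.37 ± 0.31, 0.00536), although the Con call was lost without Con-d0 replicate 4 or Con-d21 replicate 1 or 2, with adjusted p up to 0.0536. Hormad1 (TSS at 95559677, 16 CpGs) had 85.3, 85.1, 82.8, 83.3 and 83.7% in Con-d0 and 87.9, 91.3, 92.4, 89.8 and 90.6% in Con-d21, with no overlap and a log2 difference of 0.84 ± 0.23 (0.0171). In AME it had 79.8, 84.9, 89.4, 85.0 and 86.2% and then 91.3, 86.1, 92.5, 89.2 and 87.2%, which overlapped (0.54 ± 0.29, 0.212). Sycp2 (76.9 to 76.4%), Sycp3 (72.6 to 73.6%) and Hormad2 (63.3 to 62.7%), further proteins of the axis and the synaptonemal complex, had close means at the Con ages and did not pass in either arm.

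Among piRNA pathway genes the promoters moved in both directions. Asz1, a germ granule protein on mitochondria (chr6, TSS at 18109061, minus strand, 18 CpGs), had 85.0, 86.1, 85.9, 81.0 and 87.6% in Con-d0, 90.7, 90.3, 86.7, 90.1 and 89.9% in Con-d21, 80.8, 85.6, 81.4, 83.5 and 85.4% in AME-d0 and 90.4, 90.4, 88.7, 91.6 and 92.2% in AME-d21. Only the AME ages separated fully, and the log2 difference was 0.94 ± 0.24 (limma adjusted p 0.0121) in AME and 0.57 ± 0.24 (0.104) in Con. Piwil2 rose in AME by 14.8 points (1.28 ± 0.26, adjusted p 0.00294), with all d21 livers above all d0 livers, and its Con difference was 0.56 ± 0.29 (0.201). Tdrd9, a helicase with a Tudor domain (chr12, TSS at 111971559, plus strand, 3 CpGs), was covered by 3 to 78 reads per library. It had 78.8, 78.8, 82.4, 85.9 and 79.2% in Con-d0 and 97.0, 90.0, 95.5, 83.3 and 92.6% in Con-d21, which overlapped and passed (1.22 ± 0.37, 0.0299), with adjusted p up to 0.0740 when 1 library was left out. Its AME livers had 66.7, 82.1, 92.6, 93.3 and 91.1% at d0 and 89.7, 97.2, 91.7 and 98.3% in replicates 1, 2, 3 and 5 at d21. Replicate 4 had 3 reads and was left out of that fit (1.18 ± 0.56, 0.159).

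Ddx4, the germ cell RNA helicase VASA (chr13, TSS at 112652475, minus strand, 16 CpGs), was the only member promoter over 50% called lower with age. The Con-d0 livers had 85.1, 76.6, 79.7, 79.8 and 80.2% and the Con-d21 livers 66.4, 65.9, 70.9, 67.9 and 73.2%, with no overlap. The level fell by 11.4 points and by 0.88 ± 0.24 on the log2 scale (limma adjusted p 0.0164). In AME the livers had 79.6, 81.6, 75.0, 81.6 and 78.3% at d0 and 77.6, 73.8, 61.3, 76.1 and 69.6% at d21, which overlapped, with a difference of -0.57 ± 0.28 (0.169). Its 5 flank CpGs, at -4145 to -3873 bp from the TSS, had the opposite direction, with 48.7% ± 3.96 in Con-d0 and 67.8% ± 3.27 in Con-d21, and 51.5% ± 4.58 and 65.3% ± 3.25 in AME. The flank was not tested as a region. Mael (77.3 to 77.0%), a nuage protein, and Mov10l1 (76.4 to 83.2%), the piRNA helicase, did not pass in Con.

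Calls at low promoters rested on few methylated reads. Dmrt1 (chr19, TSS at 25505618, plus strand, 20 CpGs) had 4.20, 3.85, 2.66, 2.08 and 2.91% in Con-d0 and 1.89, 1.66, 1.31, 2.49 and 1.25% in Con-d21, which overlapped. The difference was -0.82 ± 0.28 (limma adjusted p 0.0497), and leaving out any of 8 of the 10 libraries lost the call, with adjusted p up to 0.110. The AME livers had 2.52, 1.68, 1.92, 2.69 and 3.01% at d0 and 3.10, 2.32, 2.16, 2.50 and 2.07% at d21 (0.05 ± 0.26, 0.924). Ddx25 (chr9, TSS at 35558528, minus strand, 13 CpGs) had 0 methylated of 1297 reads in AME-d0, which allows a level of up to 0.231%, and 6 of 1011 reads in AME-d21, with library values of 0.595, 0.962, 1.12, 0 and 0.286%. In Con it had 2 of 1478 reads at d0, all in replicate 1 (0.826%), and 1 of 850 at d21, in replicate 5 (0.606%). The AME-d21 difference passed (adjusted p 0.0084) on those 6 methylated reads, and its adjusted p was 0.0659 without AME-d0 replicates 1 and 3.

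The remaining promoters did not pass in Con or AME. Dazl had 47.1% in Con-d0, 47.3% in Con-d21, 43.9% in AME-d0 and 48.3% in AME-d21. Dmrtb1 (82.0 to 82.1%) and Tdrd6 (7.80 to 7.26%) had close Con means too. Stag3 went from 19.9 to 25.6%, Smc1b from 30.3 to 33.3% and Nanos2, a repressor of germ cell differentiation, from 64.9 to 69.7%.

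Gene bodies gained methylation with age in most members and in most genes. In Con, 19 of 26 (73.1%) were higher and 1 (3.85%) was lower at d21, where 61.1% and 5.22% of all gene bodies were. In AME, 20 (76.9%) were higher and 2 (7.69%) lower, where 65.6% and 3.86% of all were. All 20 gene bodies called in Con were also called in AME, which added Dmrt1 (higher) and Dmrtb1 (lower). The libraries of the ages did not overlap in 17 member bodies in each arm, where this was so for 49.4% of all gene bodies in Con and 51.2% in AME. The bodies of Sycp1, Tex15, Meioc and Gtsf1 passed in neither arm.

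The widest increases were in Tuba3a and Dppa3. The Tuba3a body (18 CpGs) had 66.1, 62.5, 70.7, 62.7 and 61.6% in Con-d0 and 85.8, 85.0, 87.0, 83.9 and 86.5% in Con-d21. In AME it had 52.8, 61.3, 52.4, 65.7 and 62.5% at d0 and 88.6, 80.3, 86.6, 86.9 and 83.7% at d21. The ages were fully apart, with log2 differences of 1.69 ± 0.14 (limma adjusted p 4.37e-06) and 2.01 ± 0.22 (1.74e-05). The Dppa3 body (8 CpGs) rose from 44.4 to 68.1% in Con and from 45.9 to 65.7% in AME. Tdrd5, with an unmethylated promoter, rose in its body from 72.9 to 91.4% in Con and from 75.8 to 89.3% in AME. Others rose from already high levels, such as Asz1 (85.4 to 93.8%), Mov10l1 (77.1 to 89.2%), Syce1 (79.5 to 90.4%), a synaptonemal complex protein, and Hsf2bp (80.6 to 89.9%), a recombination factor, all in Con. Nanos3, a germ cell survival factor, rose at a low level, from 3.84 to 7.82% in Con (log2 1.08 ± 0.14, limma adjusted p 7.85e-05) and from 4.16 to 7.12% in AME (adjusted p 0.00298). The other 11 that were called higher (Piwil1, Piwil2, Ddx25, Tex101, Tdrd1, Tdrd6, Tdrd9, Hormad1, Hormad2, Stag3 and Stra8) had 62.4% (Tdrd6) to 86.5% (Stra8) in Con-d0 and 72.0% (Tdrd6) to 96.9% (Hormad1) in Con-d21. With the TSS of the principal transcript, the body calls of Tex101 and Nanos3 were lost in both arms. The CpGs counted here as the Tex101 body then formed its promoter. That promoter passed in both arms (79.9 to 87.3% in Con, limma adjusted p 0.0198, and 0.0493 in AME).

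Piwil4 and Dmrtb1 went the other way. Piwil4, the nuclear PIWI protein (16 CpGs), had 72.2, 68.5, 75.2, 70.2 and 74.9% in Con-d0 and 67.6, 65.6, 66.2, 65.1 and 67.6% in Con-d21, with no overlap (log2 -0.39 ± 0.12, limma adjusted p 0.0154). The AME livers had 74.5, 75.5, 77.1, 79.5 and 73.4% at d0 and 55.2, 61.9, 65.6, 75.3 and 60.7% at d21 (-0.83 ± 0.22, 0.00584), where replicate 4 lay within the d0 range. Dmrtb1 had 68.8% and 61.1% in the AME ages (-0.48 ± 0.15, 0.0124) and 67.0% and 63.8% in Con (0.37). Parts of 2 gene bodies were nearly unmethylated. Nanos3 had 27 CpGs from 1081 to 1729 bp inside the gene at 0.236% ± 0.224 in Con-d0 and 2.88% ± 0.910 in Con-d21, and 0.472% ± 0.243 and 3.42% ± 0.775 in AME. In Dmrt1, 17 CpGs from 1006 to 1324 bp inside the gene averaged 3.84% in Con-d0 and 4.28% in Con-d21. They lie just past its promoter window, which was low too. The 34 CpGs from 31864 to 86884 bp averaged 74.3% and 82.0%.

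Single CpGs were called with age at 11 members' sites in Con and 13 in AME, all higher, where 2.48% and 2.56% of all kept CpGs were called as higher and 0.73% and 0.553% as lower. These counts depend strongly on single libraries and on the model. They fell to 4 in Con without Con-d21 replicate 5, to 4 in AME without AME-d0 replicate 1 or AME-d21 replicate 4 and to 2 in AME without AME-d0 replicates 1 and 3. They were 80 in each arm with limma per CpG and 123 and 127 with a likelihood-ratio test without overdispersion, without the share of all CpGs beside them. The 11 and 13 sites are 1% and 1.18% of the 1098 member CpGs. In Con they lay in the bodies of Dppa3 (3), Tuba3a (3), Hsf2bp (2), Dmrt1, Mov10l1 and Tdrd5 (1 each). In AME they lay in the bodies of Tuba3a (5), Dmrt1 (4), Asz1 and Tdrd6 (1 each) and in the flanks of Ddx4 and Stag3 (1 each). No promoter CpG of a member was called.

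Tuba3a had a cluster of them in an intron, 5933 to 6061 bp inside the gene, and the sequence is shown because it carries the CpGs with the smallest p. It is chr6:125279942-125280142 (minus strand, GRCm38), it overlaps no annotated exon, and its 6 measured CpGs are in capitals. Over the 6 the mean was 46.0% ± 5.86 in Con-d0, 41% ± 4.91 in AME-d0, 74.8% ± 3.84 in Con-d21 and 72.3% ± 6.50 in AME-d21. The CpG at 125280044 had 26.4, 21.4, 31.9, 15.9 and 23.2% in the Con-d0 livers, and its group means were 23.8% in Con-d0, 22.1% in AME-d0, 63.4% in Con-d21 and 64.3% in AME-d21. It was called in both arms (quasi-binomial F test across all CpGs, unadjusted p 0.000126 and 1.04e-05), as was the CpG at 125279999, with 33.0, 26.2, 72.9 and 75.8% (3.10e-05 and 2.80e-05). The CpG at 125279981 was called in Con (15.9 to 47.2%) and that at 125280093 in AME (65.8 to 88.3%).
Tuba3a: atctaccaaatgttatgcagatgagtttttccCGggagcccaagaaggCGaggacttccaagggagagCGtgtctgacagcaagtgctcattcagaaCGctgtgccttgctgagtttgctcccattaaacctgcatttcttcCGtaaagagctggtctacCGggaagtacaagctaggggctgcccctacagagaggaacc

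The other CpGs with the smallest p were each called in a single arm. In Con they were 1 in Dppa3, at chr6 122628807 in an exon (42.9 to 81.7%), and 1 in Tdrd5, at chr1 156292783 in an intron (68.4 to 94.2%). In AME they were 1 in Tdrd6, at chr17 43617072 in an intron (53.0 to 92.3%), and 1 in Dmrt1, at chr19 25592401 in an intron (63.5 to 91.1%). None of the 8 sites named here was called between AME and Con.

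**Figure D5:**
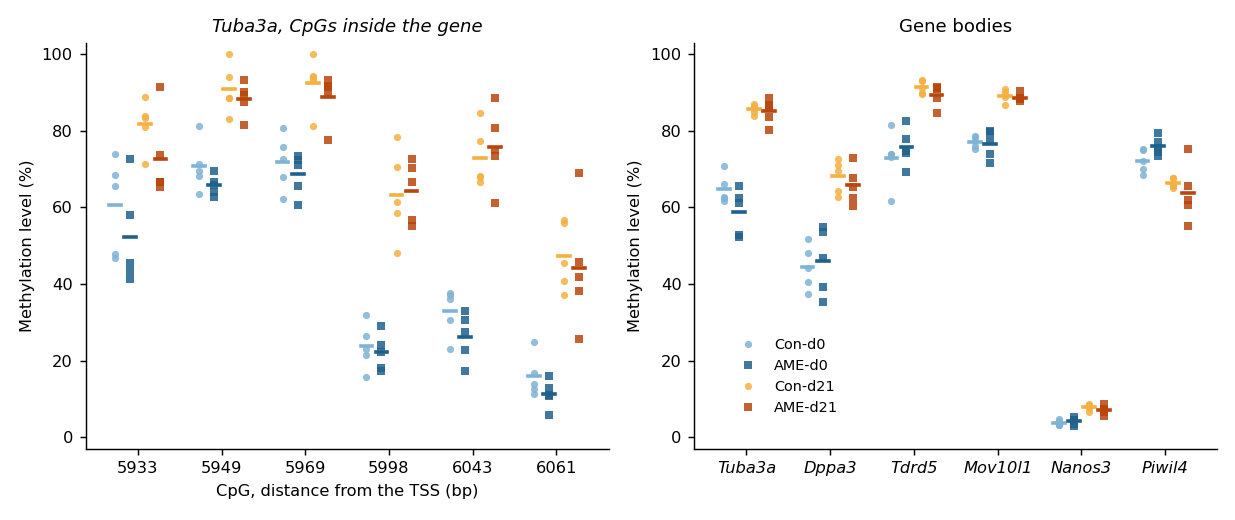
Methylation level (y axis, %) of 6 CpGs in a Tuba3a intron by distance from the TSS (left, x axis, bp) and of 6 gene bodies (right, x axis). Points are single livers, bars are group means and colours are the 4 groups. The d21 means lie above the d0 means of the same arm in Tuba3a, where the body went from 64.7% to 85.6% in Con, and Piwil4 goes the other way, from 72.2% to 66.4%.

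The upstream flanks were read as levels. Rad21l, a meiotic cohesin, was measured there only, with 13 CpGs at 38% ± 5.16 in Con-d0 (n = 4) and 35.9% ± 2.63 in Con-d21. The flanks of Tuba3a (74.7 to 90.7%) and Ddx25 (71.1 to 88.8%) stood higher in the Con-d21 libraries than in the Con-d0 libraries. The 43 flank CpGs of Tdrd1 (5.28% in Con-d0) and the 23 of Tdrd9 (0.306%) had low means.

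Other gene lists were read beside the members. Of 40 other germline genes 20 had a measured promoter, of which 10 exceeded 50% and 8 were below 10% in Con-d0. Of the 20, 5 rose and 0 fell in each arm. Of all promoters, 19.8% rose and 3.87% fell in Con, and 20.8% and 3.13% in AME. Sohlh2, a regulator of early germ cells (84.9 to 92.9% in Con), Spata22 (82.6 to 93.3%), a recombination protein, and Tex14 (84.3 to 90.0%), a protein of germ cell bridges, rose in both. Of 23 repressors of germline genes 19 had a measured promoter, all below 10%, with a highest value of 4.28% in Con-d0 and 6.69% in Con-d21, and 1 rose in each arm, Mga, from 0.338 to 2.17% in Con. Among all promoters with a mean under 10% across the 20 libraries, 11.6% rose in Con and 12% in AME. Neither list had a promoter called between AME and Con.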

How the data were processed

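RRBS was read for 20 livers, 5 per group, with groups taken from the sample labels. For each library the authors deposited methylated and unmethylated read counts per CpG and the percent methylation, with no coverage minimum. The tools listed in the submitters' processing notes are Bismark, BWA, FastQC and Trim Galore, with the build mm10. Deduplication and strand merging are not given in the sources used here, and both could change the counts. The counts were joined to GENCODE M21 genes and a CpG was kept with 10 reads in 3 libraries of each group.

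Reads were summed per region (at least 3 kept CpGs), and log2((methylated + 1)/(unmethylated + 1)) was tested with limma 3.58.1 over all annotated genes, with Benjamini-Hochberg adjusted p under 0.05. A library with fewer than 10 reads in a region was left out of that fit. For single CpGs a quasi-binomial logistic fit with an F test was used (Python 3.11.15), and CpGs were called at an unadjusted p under 0.001 and 10 points. Scripts were tested on simulated data.

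The members and lists were chosen with earlier results of these data known. Values in every library are given for the up to 12 members with the smallest adjusted p and for the 3 most and 3 least methylated promoters, and up to 8 called CpGs are named. Piwil4 and the Tuba3a gene body were also shown in full after their values were seen. Alternatives were coverage, window, pseudocount, model, block and left-out libraries. RNA-seq was not analysed here.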

Additional observations from a re-analysis of the deposited data

Results flagged for a closer look

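In the 56 groups of libraries that were considered, 3 single values lay far from the other libraries of their group. Ddx25 in AME-d0 had 0 in each library and could not be checked. Chance alone sets about 1 in 20 groups apart in this way where values vary continuously. The Ddx25 promoter had 0.826% in Con-d0 replicate 1 and 0.606% in Con-d21 replicate 5, where the other 4 libraries of each group were at 0. These values rest on 2 and 1 methylated reads. With the other libraries at 0 any methylated read is flagged, so that rate does not apply to them. The Asz1 promoter had 86.7% in Con-d21 replicate 3, below the 89.9 to 90.7% of the other 4 libraries.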

How the results depend on the processing

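No named result that passed changed direction under any alternative that was run. Differences that did not pass could change sign. The log2 difference of the Dmrt1 promoter in AME-d21 against AME-d0 ran from -0.0573 to 0.136 with 1 library left out. Between AME and Con, promoter and gene body calls stayed at 0 under each alternative, and also with any single library left out (0 to 0). Promoter calls in Con-d21 against Con-d0, 9 in the report, were 5 with a coverage minimum of 20 reads and 5 with the minimum in all 20 libraries, which left 19 and 20 member promoters to test. They ran from 6 to 9 with 1 library left out (6 without Con-d21 replicate 1). Promoter calls in AME-d21 against AME-d0, 8 in the report, were 5 with 20 reads, 5 with the minimum in all libraries and 5 without AME-d0 replicates 1 and 3, which lost Asz1, Ddx25 and Dpep3, and ran from 8 to 9 with 1 library left out. On the mean percent over CpGs, 8 passed in Con (Dmrt1 and Dpep3 lost, Asz1 gained) and 10 in AME (Ddx25 and Dpep3 lost, Dazl, Slc25a31, Smc1b and Tdrd5 gained). With a promoter window of 500 bp, 6 passed in Con (Brdt, Dmrt1 and Sycp1 lost) and 7 in AME (Brdt and Sycp1 lost, Tdrd5 gained). With 1 library left out, gene body calls ran from 20 to 20 in Con and 20 to 22 in AME, where the Ddx25 call was lost without any of 5 libraries. Under the other alternatives they ran from 14 (20 reads) to 22 (mean percent over CpGs) in Con and from 16 (20 reads) to 23 (5 reads, or at least 1 CpG) in AME, with 18 without AME-d0 replicates 1 and 3. The shares of all promoters and gene bodies called under these alternatives are not given here. Shifts in the age counts are thus not set against the genome.

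Counts of single CpGs depended most on the model. The likelihood-ratio test without overdispersion called 5 (AME-d0 against Con-d0), 3 (AME-d21 against Con-d21), 123 (Con age) and 127 (AME age), and limma per CpG called 80 in each age comparison. The shares of all CpGs called by these other models are not given here. With 1 library left out the calls ran from 4 to 9 in Con (4 without Con-d21 replicate 5) and from 4 to 10 in AME (4 without AME-d0 replicate 1 or AME-d21 replicate 4), and 2 were called without AME-d0 replicates 1 and 3. The cause was not tested.

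Replicate numbers were not treated as pairs. The deviations of same-numbered libraries correlated between -0.0472 and 0.0444 over 18301 promoters. That shows no shared deviation and does not settle how the samples were handled. With the replicate number as a block, 6 promoters passed in Con age (Dmrt1, Hormad1 and Tdrd9 were lost) and 8 in AME age. With the block, limma per CpG called 1 CpG in AME-d0 against Con-d0, 77 in Con age and 72 in AME age.

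Depth limits the promoters with few CpGs and reads most, such as Tdrd9, and intervals for read counts cover counting error only.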
